A study of Rattus norvegicus with 25 samples.

Results

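Zfp36 (ENSRNOG00000058388) and Btg2 (ENSRNOG00000003300) are 2 of the 32623 genes in the deposited rat tables, and both were among the 13908 genes that passed the filter on low counts. They were picked by identifier as the 2 regulators of mRNA decay among genes that stood higher in the hippocampus shortly after the forced swim test (FST), so their difference between the 20-m group and control rats chose them and is described below without a test. All samples were hippocampus of male Sprague Dawley rats. Control rats (n = 6) did not undergo FST, the 20-m group (n = 7) was killed 20 min after the test and the 24-h group (n = 6) 24 h after it, and both swim groups had also been through a pretest swim on the previous day. The comparisons ask which transcripts respond to this acute stressor soon after it and whether the response has passed a day later. The study's Results count 1 rat fewer in the 20-m group than its Methods and the sample labels, which give 7, and all 7 were used. Age is not given in the sources used here, and each rat is a separate animal.

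Zfp36 encodes tristetraprolin, a zinc finger protein that binds AU-rich elements in mRNAs and recruits the CCR4-NOT deadenylase, which shortens the poly(A) tail and so starts decay of the mRNA. Btg2 encodes an antiproliferative protein of the BTG/TOB family that binds the catalytic subunits of the same complex and stimulates deadenylation. It is also a target gene of p53 and is known in the brain for its part in the differentiation of neuronal progenitors, among them those of the dentate gyrus. Both are immediate early genes, whose transcription is switched on by growth factors, neuronal activity or stress without new protein synthesis.

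The sequences upstream of both genes are shown because both mRNAs stood high in the same group of rats, and they let the elements before each gene be compared. RefSeq (GRCr8) places Zfp36 on the minus strand with these 250 bases at chr1:92799109-92799358 and Btg2 on the minus strand with these 250 bases at chr13:48087691-48087940. The files use another build, Rnor 6.0, so the genes were matched by symbol, which worked for 2 of 2. Capitals mark matches to GCGGGGGCG, bound by proteins of the Egr family, and to the CArG box, bound by serum response factor, in Zfp36, and to the cAMP response element TGACGTCA in Btg2. Each sequence runs 5′ to 3′ and ends at the base before the annotated start.
Zfp36: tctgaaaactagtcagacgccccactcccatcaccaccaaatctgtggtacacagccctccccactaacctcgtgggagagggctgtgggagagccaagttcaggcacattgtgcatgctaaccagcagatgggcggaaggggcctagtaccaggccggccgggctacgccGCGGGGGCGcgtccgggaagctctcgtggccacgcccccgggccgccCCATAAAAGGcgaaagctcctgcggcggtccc
Btg2: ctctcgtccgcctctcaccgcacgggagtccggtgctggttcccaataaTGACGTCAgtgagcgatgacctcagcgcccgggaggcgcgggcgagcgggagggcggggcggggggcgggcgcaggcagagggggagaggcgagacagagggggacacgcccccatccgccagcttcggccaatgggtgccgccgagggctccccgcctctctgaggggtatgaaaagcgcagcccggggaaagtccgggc

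In the Zfp36 sequence, GCGGGGGCG began 79 bases before the start and the CArG box 32 bases before it. Of 33469 RefSeq promoter sequences of the same length, 2.45% held GCGGGGGCG and 1.5% a CArG box on either strand. The cAMP response element of Btg2 began 201 bases before the start, and 1.59% of promoters held one. Each of these 3 motifs was found upstream of 1 of the genes and not of the other. The GC box GGGCGG, common to 30.5% of promoters, was found upstream of both, beginning 119 and 37 bases before the start of Zfp36 (the second on the opposite strand, sharing 1 base with the CArG box) and 150, 145 and 138 bases before that of Btg2 (the first 2 sharing 1 base). CCAAT (34% of promoters) was found upstream of Btg2 alone, 208 and 72 bases before the start. Neither sequence held TATAAA (12.9%) or the AP-1 motif TGANTCA (6.34%). Both sequences were rich in G and C, above 84.8% of promoters for Zfp36 and above 94.0% for Btg2. These matches describe letters in a window and were not tested for binding, and the motifs were chosen with the sequences in view.

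Expression was measured by sequencing polyadenylated RNA, and summed expected counts came to 6217600 to 9032923 per rat (median 7192807). Levels below are CPM, each gene's share of a rat's counts scaled by TMM, except where TPM, which also divide by transcript length, are used to set the 2 genes side by side. The labels number 5 batches without saying what a batch is. All 3 groups had 3 rats in Batch 1, while Batch 2 took 3 rats from each swim group but a single control rat. Batches 3 to 5 repeated 20-m rat 10 and control rats 21 and 27, whose 3 numbered repeats, called runs here, were summed. Whether a repeat was a new library or a new sequencing run is not given by the labels. In bulk tissue, a change in the number of cells that make an mRNA and a change in mRNA per cell cannot be told apart.

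Zfp36 mRNA was scarce in control hippocampus and higher in every rat of the 20-m group. In control rats its level was 3.20 CPM at the lowest (rat 22), 4.41 at the median and 5.57 at the highest (rat 21). In the 20-m group it was 6.32 CPM at the lowest (rat 12), 9.59 at the median and 10.8 at the highest (rat 10). In the 24-h group it was 3.98 CPM at the lowest (rat 19), 5.36 at the median and 6.93 at the highest (rat 15). All 7 rats of the 20-m group stood above all 6 control rats, which held for 0.137% of the genes tested, and this is the difference on which the gene was chosen. In the study's own RT-PCR of hippocampus, Zfp36 in the 20-m group had the same direction but was not significantly higher. Against the 24-h group the ranges overlapped by a single pair, since 20-m rat 12 lay below 24-h rat 15 and the other 6 rats of the 20-m group lay above all rats of the 24-h group. The order of the groups by median was thus control, 24-h and 20-m, and the first 2 overlapped broadly, with 1 of 6 rats of the 24-h group above the highest control rat.

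Btg2 mRNA was the more abundant of the pair in every rat and was also highest in the 20-m group, though with overlap. In control rats its level was 14.8 CPM at the lowest (rat 25), 18.7 at the median and 27.98 at the highest (rat 24). In the 20-m group it was 25.5 CPM at the lowest (rat 1), 36.2 at the median and 41.1 at the highest (rat 2). In the 24-h group it was 15.3 CPM at the lowest (rat 13), 18.9 at the median and 20.5 at the highest (rat 17). The 20-m group did not overlap the 24-h group, which held for 0.288% of the genes tested, but 20-m rats 1 and 12 lay below control rat 24, so 5 of 7 stood above every control rat. Control and 24-h rats had nearly the same median, and 0 of 6 rats of the 24-h group stood above the highest control rat. The control rats were the more spread, because rats 24 and 28, both of Batch 1, stood above all rats of the 24-h group.

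**Figure D1:**
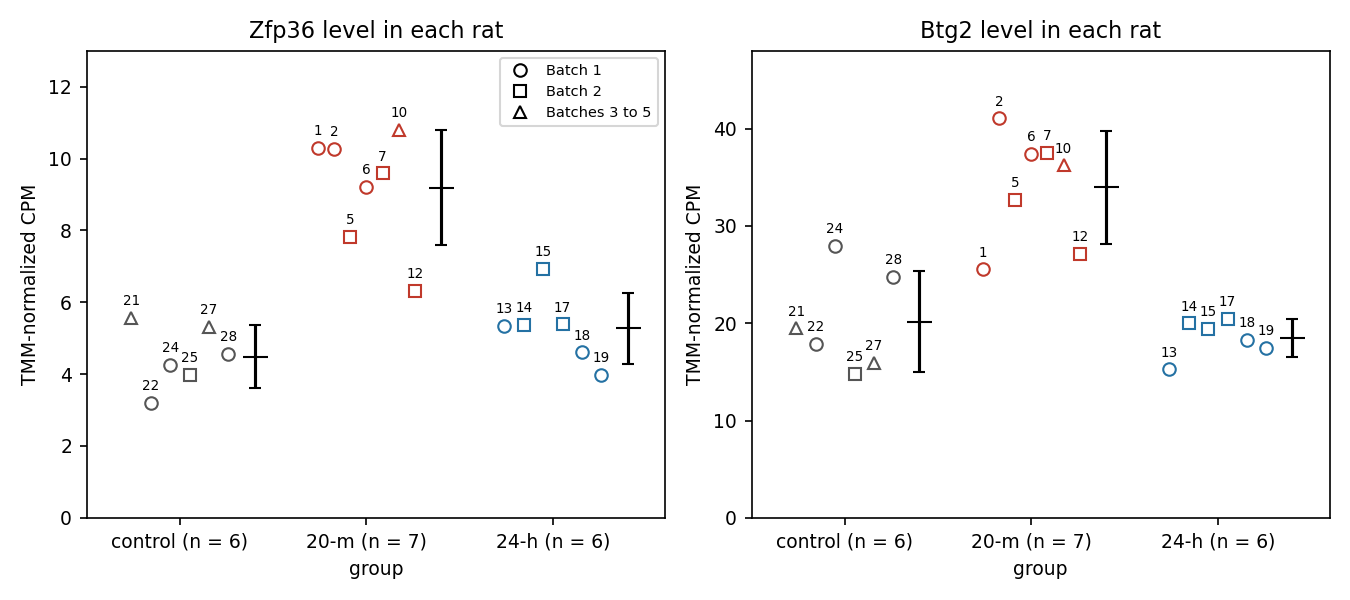
TMM-normalized CPM (y axis, from 0) of Zfp36 (left) and Btg2 (right) in each of 19 rats by group, with rat numbers, a symbol for each batch and the mean ± SD beside each group. For Zfp36 the 20-m rats lie between 6.32 and 10.8 CPM, above all control rats, and for Btg2 they lie between 25.5 and 41.1 CPM, above all 24-h rats.

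The fitted differences between the 20-m group and the others are a description, since those rats chose the genes. In edgeR, with group and batch as terms, Zfp36 was 2.17-fold higher than in control rats (log2 fold change 1.12, standard error 0.148, 95% confidence interval 0.81 to 1.43). Btg2 was 1.69-fold higher than in control rats (log2 fold change 0.76, standard error 0.149, interval 0.45 to 1.07). Against the 24-h group the order was turned, with Zfp36 1.67-fold higher (log2 0.74, standard error 0.143, interval 0.44 to 1.04) and Btg2 1.85-fold higher (log2 0.89, standard error 0.147, interval 0.58 to 1.20). The median log2 fold change over all genes tested was 0.00 in each comparison. In the same fit, 6 of the 13908 genes (0.0431%) were higher than in control rats and 5 (0.036%) higher than in the 24-h group at an adjusted p below 0.05 with a fold change above 1.5. Nothing is read from that threshold for Zfp36 or Btg2 in either comparison, since the 20-m rats chose them. Both comparisons share the 20-m rats, and whether the genes differed in size of response was not tested. Under the alternative settings Zfp36 was 0.87 to 1.31 and Btg2 0.56 to 1.09 above control rats on the log2 scale, and Zfp36 was 0.44 to 1.08 and Btg2 0.71 to 1.02 above the 24-h group.

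**Figure D2:**
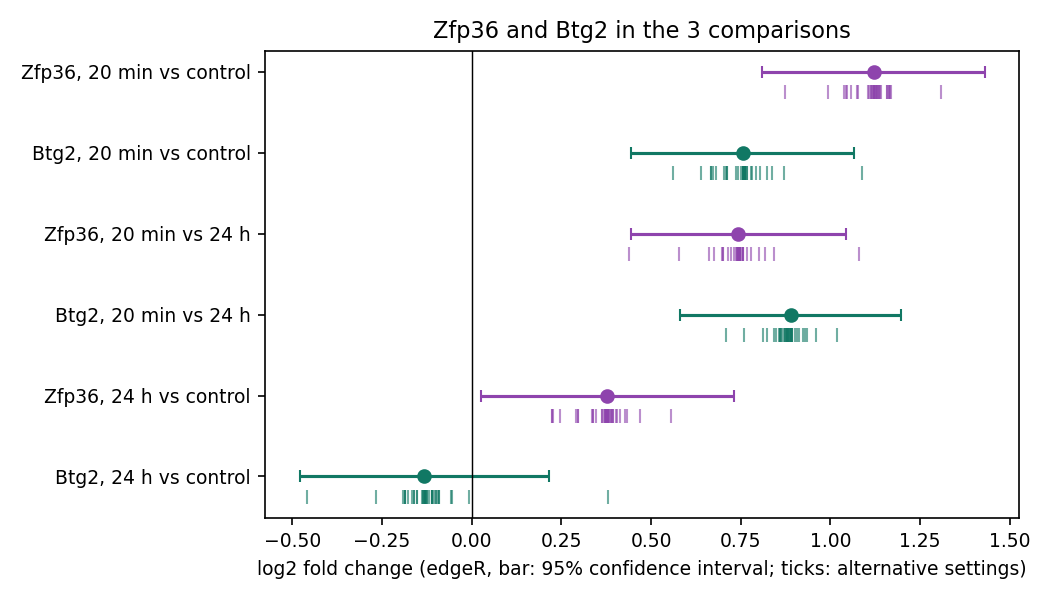
Log2 fold changes (x axis) of Zfp36 (purple) and Btg2 (green) in the 3 comparisons, with the edgeR estimate as a point, its 95% confidence interval as a bar and the estimates under alternative settings as ticks below it. Against control rats the 20-m estimate is 1.12 for Zfp36 and 0.76 for Btg2, and after 24 h the Btg2 ticks lie on both sides of 0.

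The size of the 20-m difference varied between batches. For Zfp36 the mean difference from control rats on the log2 CPM scale was 1.26 with 3 against 3 rats (Batch 1), 0.92 with 3 against 1 (Batch 2) and 0.95 with 1 against 2 (Batches 3 to 5). For Btg2 it was 0.55, 1.10 and 1.03 in the same order. Zfp36 therefore differed most in the batch in which Btg2 differed least, and both genes were higher in the 20-m group in all 3. In Batch 1 the Btg2 ranges overlapped, from 25.5 to 41.1 CPM in the 20-m group and from 17.9 to 27.98 CPM in control rats, while those of Zfp36 did not (9.22 to 10.3 against 3.20 to 4.56 CPM).

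The 24-h group against control rats is the comparison that the choice of genes did not use, although it shares the control rats with it. Zfp36 was 1.30-fold higher in the 24-h group (log2 fold change 0.38, standard error 0.169, interval 0.02 to 0.73), with an unadjusted p of 0.0374 and an adjusted p of 1.00 in edgeR. It ranked 313 of 13908 genes by p, and 1.84% of genes were higher at an unadjusted p under 0.05, so an unadjusted p of this size was not rare. Btg2 was 0.912-fold of the control level (log2 fold change -0.13, standard error 0.166, interval -0.48 to 0.21), with p = 0.433 and an adjusted p of 1.00 in edgeR, where 1.33% of genes were lower at an unadjusted p under 0.05. In an exact permutation test over rats (2-sided), which did not adjust for batch, the difference in mean log2 CPM was 0.22 for Zfp36 (p = 0.182) and -0.09 for Btg2 (p = 0.569). Without its batch term edgeR gave 0.245 for Zfp36 (p = 0.1525) and -0.127 for Btg2 (p = 0.4035). When labels were exchanged within batches only, the exact permutation p was 0.113 for Zfp36 and 0.5 for Btg2. The value tested there was still the difference over all rats, not adjusted for batch, and control rats 21 and 27 kept their labels. Neither gene passed the adjusted threshold, and the intervals still allow a level in the 24-h group up to 1.66-fold of control for Zfp36 and 1.16-fold for Btg2. Across all genes edgeR called 0, and 441 had an unadjusted p under 0.05. DESeq2 called 0 with 351 at that unadjusted p, limma voom 0 with 407, and voom followed by ComBat and limma 0 with 1041.

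The sign of the Btg2 difference at 24 h was not the same in Batch 1 and Batch 2, and whether it depends on the batch was not tested. In Batch 1 the 24-h rats had 15.3 to 18.3 CPM and the control rats 17.9 to 27.98, a mean difference of -0.44 on the log2 CPM scale. In Batch 2 the 24-h rats had 19.4 to 20.5 CPM and the only control rat 14.8, a difference of 0.42. That rat (rat 25) had the lowest Btg2 level of all control rats, so the batch and this animal cannot be told apart. Without Batch 1 the edgeR estimate for Btg2 was 0.38 (p = 0.0469, adjusted p = 1.00), against -0.46 with Batch 1 alone. The fit without Batch 1 used rat 25 again, so it is not a separate view of the sign. For Zfp36 the difference was positive in both batches, 0.20 in Batch 1 and 0.52 in Batch 2, and its estimate without Batch 1 was 0.56 (adjusted p = 1.00 in edgeR). Batches 3 to 5 held no rat of the 24-h group.

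On the TPM scale, which corrects for length, Btg2 was above Zfp36 in all 19 rats. Mean TPM of Zfp36 was 3.43 ± 0.640 (SD, n = 6) in control rats, 6.82 ± 1.48 (SD, n = 7) in the 20-m group and 4.03 ± 0.705 (SD, n = 6) in the 24-h group. Mean TPM of Btg2 was 10.95 ± 3.37, 17.7 ± 3.98 and 9.94 ± 1.26 in the same order and with the same n. Ranked by mean TPM among the genes tested, Zfp36 stood at percentile 18.4 in control rats and 33.4 in the 20-m group, and Btg2 at 44.8 and 59.9. Zfp36, a low transcript in this tissue, thus stayed below the middle of the range in the 20-m group, and Btg2 passed it.

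The Btg2 level was a similar multiple of the Zfp36 level in most rats, and the control rats of Batch 1 stood apart. Btg2 TPM divided by Zfp36 TPM had a median of 3.21 in control rats (2.11 to 4.60), 2.80 in the 20-m group (1.74 to 3.01) and 2.64 in the 24-h group (1.97 to 3.08). The 3 control rats of Batch 1 had 3.92 (rat 22), 4.60 (rat 24) and 3.81 (rat 28), above all other rats, and the other 3 control rats had 2.11 to 2.603. The 20-m rats of Batch 1 had 1.74, 2.80 and 2.85 and its 24-h rats 2.00 to 3.08, so the high multiple was seen in the control rats of that batch alone.

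The log2 ratio of Zfp36 to Btg2 TPM (pseudocount 0.1) was -1.61 ± 0.444 (SD, n = 6) in control rats and -1.29 ± 0.258 (SD, n = 6) in the 24-h group. The difference of 0.32 did not pass an exact permutation test (2-sided, p = 0.162), nor one with labels exchanged within batches (exact p = 0.1). Both tested the difference over all rats of the 2 groups, not adjusted for batch, and in the second control rats 21 and 27 kept their labels. The difference came to 0.66 in Batch 1 and 0.11 in Batch 2. With Batches 1 and 2 only it was 0.55 (exact permutation p = 0.0381), and without Batch 1 it was -0.01 (exact permutation p = 0.9, where 3 against 3 rats cannot go below 0.1). Neither test had a term for batch. Without Batch 1, control rats 21 and 27 came from Batches 3 to 5, which held no rat of the 24-h group. In the 20-m group the log2 ratio was -1.36 ± 0.276 (SD, n = 7), which was 0.25 above control rats as a description. By batch, that difference was 0.75 (Batch 1), -0.17 (Batch 2) and -0.06 (Batches 3 to 5).

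**Figure D3:**
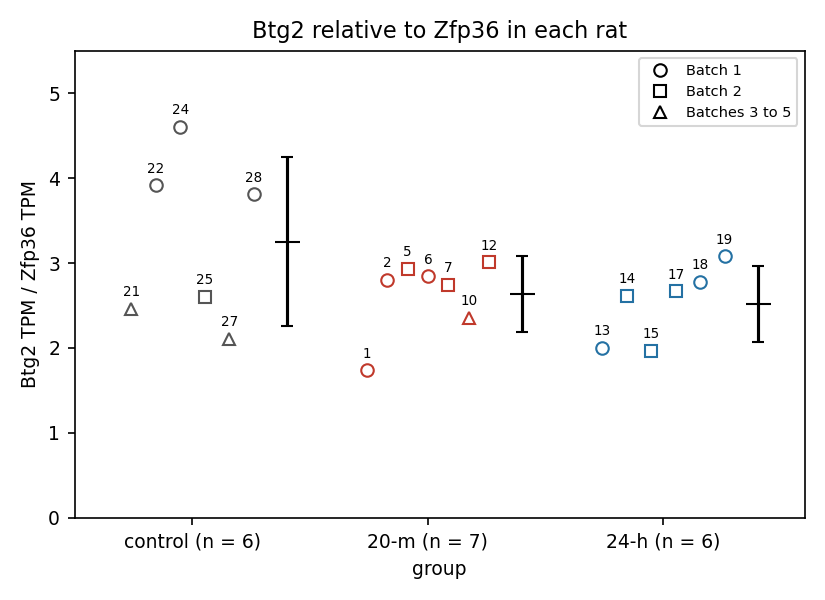
Btg2 TPM divided by Zfp36 TPM (y axis, from 0) in each of 19 rats by group, with rat numbers, a symbol for each batch and the mean ± SD beside each group. Control rats 22, 24 and 28 of Batch 1 lie at 3.81 to 4.60 and all other rats at 1.74 to 3.08.

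Whether the 2 genes varied together was asked of the residuals of log2 CPM after additive terms for group and batch were removed. The choice of genes did not use whether these residuals rise and fall together. The study's moderated t test does set each gene's difference against its spread, so the size of the spread entered its list. No term joined group and batch, so a group difference that varied between batches stayed in the residuals. Over 19 rats Pearson's r was 0.361 (permutation p = 0.13) and Spearman's rho 0.444 (permutation p = 0.065), for 1 relation computed. Without the 2 rats farthest from the median of Zfp36 (rats 12 and 19), r was 0.240 (permutation p = 0.364). A single rat weighed heavily, since r was 0.591 without 20-m rat 1 (permutation p = 0.00841) and 0.246 without 20-m rat 12 (permutation p = 0.326). Rat 1 had the second highest Zfp36 level of the 20-m group (10.3 CPM) and its lowest Btg2 level (25.5 CPM). Within batches r was 0.260 in Batch 1 (n = 9, exact permutation p = 0.602). In the swim groups of Batch 2, with its control rat left out, r was 0.724 (n = 6, exact permutation p = 0.306). On the log2(TPM + 1) scale, which is not scaled by TMM, r was 0.580 (permutation p = 0.0122). The relation thus passed or missed the threshold with the scale used and with 1 rat.

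**Figure D4:**
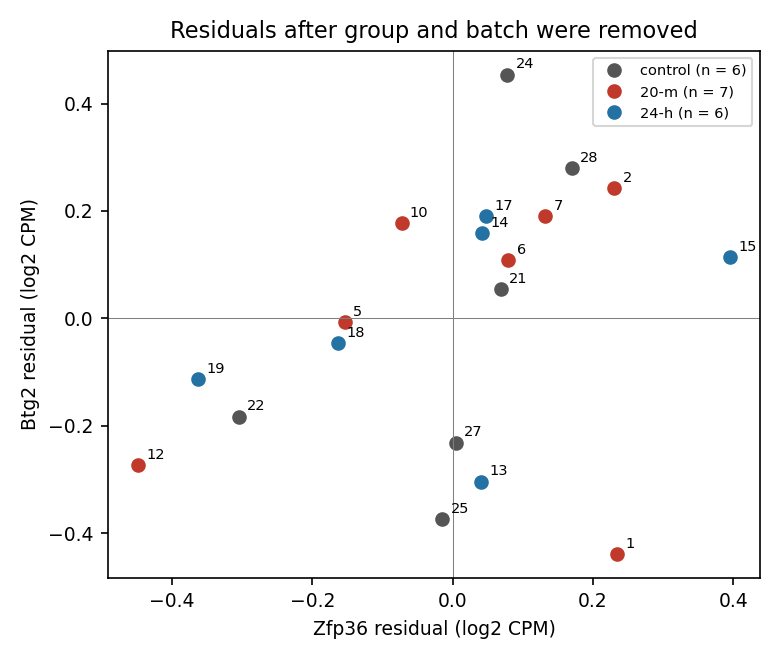
Residuals of log2 CPM after group and batch were removed, Zfp36 on the x axis and Btg2 on the y axis, 1 point for each of 19 rats, coloured by group and numbered by rat. Rat 12 lies low on both axes, and rat 1 lies high for Zfp36 and lowest for Btg2.

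Spread between rats was set by counting to different degrees for the 2 genes. Zfp36 rested on 28 to 37 counts in control rats, 41 to 81 in 20-m rats and 28 to 55 in 24-h rats. Its coefficient of variation in CPM was 19.5% in control rats, where counting error alone gives 17.7%, 17.4% against 12.7% in the 20-m group and 18.8% against 16.5% in the 24-h group. Btg2 rested on 102 to 324 counts per rat. Its coefficient of variation was 25.7% in control rats, against 8.54% from counting, 17.004% against 6.58% in the 20-m group and 10.4% against 8.69% in the 24-h group. Variation of Btg2 within the control and 20-m groups thus went well beyond counting error, while little of that kind was detectable for Zfp36 in control or 24-h rats at this depth. These values pool the batches, so differences between rats, batches and runs are not separated in them.

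The 3 rats with several runs gave a second view of this error. In 20-m rat 10, Btg2 was 21.8 CPM in run 1 (36 counts, 95% Poisson interval 15.3 to 30.2), 37.7 in run 2 (62 counts) and 41.8 in run 3 (167 counts, interval 35.7 to 48.6). These runs of 1 rat differed beyond counting error (chi-square 12.996 with 2 degrees of freedom, p = 0.00151), the only such result among 6 tests over 2 genes and 3 rats. Zfp36 in the same runs was 6.66, 11.6 and 12.3 CPM, with run 1 again the lowest but within counting error (chi-square p = 0.174). In control rats 21 and 27 the runs gave 4.51 to 6.45 CPM for Zfp36 and 11.4 to 21.996 CPM for Btg2, with chi-square p from 0.113 to 0.772. With run 1 of rat 10 left out, the log2 fold change of the 20-m group against control rats was 1.16 for Zfp36 and 0.79 for Btg2.

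**Figure D5:**
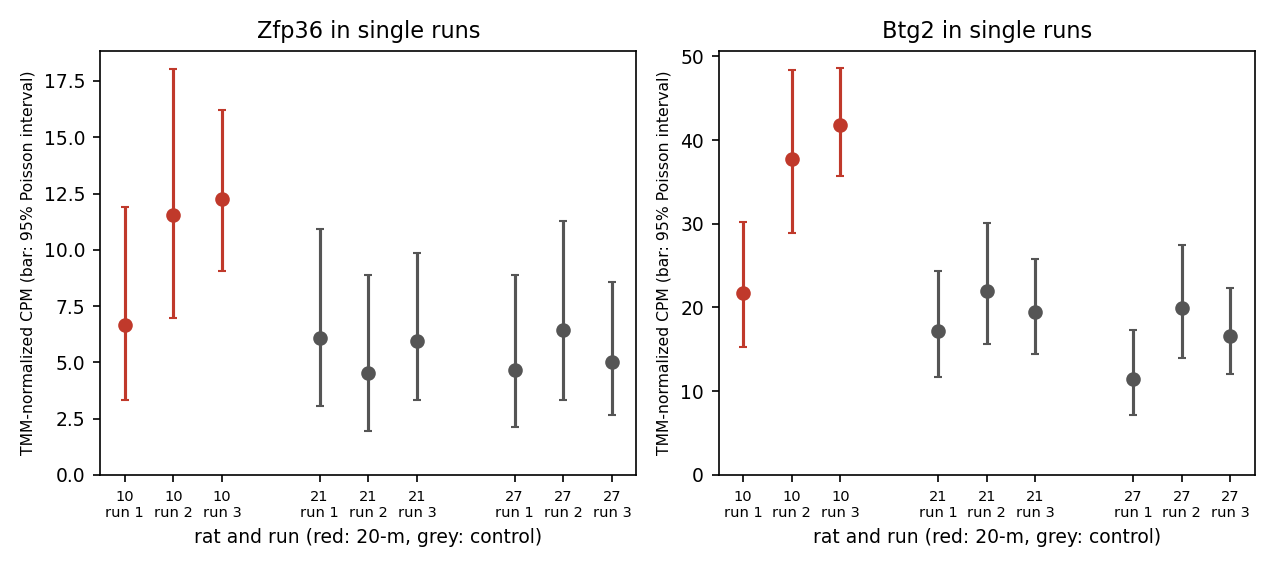
TMM-normalized CPM (y axis, from 0) of Zfp36 (left) and Btg2 (right) in the single runs of 20-m rat 10 (red) and control rats 21 and 27 (grey), with 95% Poisson intervals as bars. Run 1 of rat 10 is the lowest of its runs for both genes, at 6.66 CPM for Zfp36 and 21.8 CPM for Btg2.

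Each gene has a single transcript in the annotation the authors used, of 1812 bases for Zfp36 and 2562 bases for Btg2. The deposited expected counts were whole numbers for both genes in 25 of 25 libraries, with a posterior standard deviation of 0, so no reads were shared out between genes by the estimation.

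Of the other genes of the pathway, 2 could be matched to an identifier besides Zfp36 and Btg2. The names came from the study's list of genes changed at 20 min in these rats, so the 20-min values of both are a description without a test. Dusp1, a phosphatase that inactivates MAP kinases such as p38, which controls the activity of tristetraprolin, had a log2 fold change of 1.69 in the 20-m group against control rats (standard error 0.180). After 24 h it was 0.18 (interval -0.25 to 0.61, edgeR adjusted p = 1.00). Fos, a transcription factor subunit whose mRNA carries AU-rich elements and is a known target of tristetraprolin, had a log2 fold change of 1.25 in the 20-m group (standard error 0.246). After 24 h it was 0.09 (interval -0.49 to 0.68, edgeR adjusted p = 1.00). The CCR4-NOT subunits, other deadenylases, decapping and exosome genes and markers of hippocampal cell types were not analysed here.

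By Pearson's r of log2 CPM over 19 rats after batch was removed, the gene most like both Zfp36 (0.916) and Btg2 (0.904) was Ccn1, which encodes a secreted matrix protein. For Zfp36 the next were Klf2, a zinc finger transcription factor (0.910), Dusp1 (0.907), ENSRNOG00000054344 (0.883) and Apold1, an early response gene of endothelium (0.879). For Btg2 they were ENSRNOG00000038365 (0.862), Klf2 (0.860), Dusp1 (0.859) and a further gene without a name in the sources used here (0.847). Ccn1, Klf2 and Dusp1 stood in both lists of 5. Between Zfp36 and Btg2 r was 0.788, which placed Btg2 at rank 9 for Zfp36 and Zfp36 at rank 19 for Btg2. These values contain the difference between the groups and share the library's scaling. With the group removed as well, the 5 most alike were genes without names for both, at r of 0.874 to 0.907 for Zfp36 and 0.808 to 0.894 for Btg2, and Btg2 fell to rank 3542 for Zfp36 and Zfp36 to rank 1859 for Btg2.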

How the data were processed

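The 25 libraries came from 19 rats. Reads had been trimmed by the authors (AdapterRemoval V2) and quantified by STAR and RSEM on the Rnor 6.0 assembly and its annotation. Versions of both tools were not given in the sources used. The authors deposited expected counts, not normalized, and TPM for 32623 genes, beside lengths and posterior standard deviations. None of these values is corrected for batch. Groups, rats and batches came from the sample labels, and rats are named by their number there. The rat numbers and groups in the study's supplementary lists do not match the labels throughout, and the labels were used.

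Expected counts were rounded to whole numbers, and runs of a rat were summed. A rat's TPM is the mean of its runs weighted by their counts. Genes were kept by edgeR's filterByExpr (minimum count 10, minimum total 15) and scaled by TMM. The quasi-likelihood test of edgeR was fitted to all 19 rats at once with terms for group and batch (Batches 3 to 5 as 1 level), with 14 residual degrees of freedom. Adjusted p-values are Benjamini-Hochberg over 13908 genes. Log2 CPM have a prior count of 2. Correlations used 100000 permutations within groups. The test was tested on simulated data with known changes, which held no batch effect and no repeated runs and so cannot speak for the uneven batches here. At 6217600 to 9032923 counts per rat, counting intervals cover counting error only. The alternatives were other tools (DESeq2, limma voom, ComBat), scalings, filters, batch terms, subsets of batches and runs, TPM, no minimum fold, and each rat left out in turn. Run 1 of rat 10 left out, Batch 1 left out and the permutation tests of single genes were chosen after seeing the data. The same rat numbers in the labels of Batches 3 to 5 mark runs of 1 rat. The block fit used single runs, treated runs of a rat as correlated and had a term for batch.

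The genes, lists and motifs were chosen with earlier results of these data known. Named were Zfp36, Btg2, members of 18 fixed lists of pathway and marker genes that could be matched to an identifier, and the 5 genes most like each. The files give identifiers without names, and the gene table at hand lists none of this kind. Names came from pairs of identifier and symbol in the study's own list of genes changed at 20 min, which matched 4 of the 159 listed symbols, 2 of them Zfp36 and Btg2. The tissue label was not checked against markers. Software comprised Python 3.11.15 (scipy 1.17.1, pandas 2.3.3, numpy 2.4.6) and R 4.3.3 (sva 3.50.0, DESeq2 1.42.0, limma 3.58.1, edgeR 4.0.16).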

Additional observations from a re-analysis of the deposited data

Results flagged for a closer look

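No single rat was flagged as apart from the others of its group in 15 sets of values (CPM and TPM of both genes and their ratio in 3 groups), a check in which chance flags about 1 in 20. The nearest was the ratio of Zfp36 to Btg2 in 20-m rat 1, with a gap of 0.560 of the group's range against a limit of 0.568. The check sets the highest or lowest rat against its neighbour. It cannot flag several rats lying apart together, as control rats 22, 24 and 28 did in the ratio.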

How the results depend on the processing

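Of the results on the 2 genes, 2 changed sign, both without Batch 1: Btg2 at 24 h against control rats (0.38 against -0.13) and the log2 ratio of Zfp36 to Btg2 (-0.013 against 0.32). Leaving out 1 rat at a time gave 0.29 to 0.47 for Zfp36 at 24 h, -0.27 to -0.01 for Btg2 and 0.21 to 0.43 for the ratio, and 0 genes were called at 24 h under every setting run. The ratio passed the threshold with Batches 1 and 2 only (0.55), and the residual correlation did on the TPM scale (0.580) and, with r of 0.246 to 0.591 when single rats were left out, without 20-m rat 1. At 20 min against control rats, Zfp36 was 1.04 to 1.17 and Btg2 0.64 to 0.87 without single rats, and Btg2 moved to 1.09 without Batch 1. At 20 min against 24 h, Zfp36 was 0.66 to 0.84 and Btg2 0.82 to 0.96 without single rats, and Zfp36 moved to 1.08 in Batch 1 only and 0.44 without it. The causes were not tested.

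Counts of genes called at 20 min against control rats (6 in edgeR, 4 to 8 without single rats) were 0 in Batch 1 only, 15 with DESeq2, 10 without a filter and 15 with voom, ComBat and limma. At 20 min against 24 h (5 in edgeR, 4 to 9 without single rats, 9 without 20-m rat 2) they were 0 in Batch 1 only, 27 with DESeq2, 3 with log2(TPM + 0.1), 9 without a filter, 48 with voom, ComBat and limma and 22 without Batch 1. In the block fit, which has a term for batch and treats runs of a rat as correlated, 20 and 19 genes were called. Its values were 1.14 for Zfp36 and 0.76 for Btg2 against control rats, 0.75 and 0.88 against the 24-h group, and 0.39 and -0.12 at 24 h. Depth limits Zfp36 most, at 28 to 81 counts per rat.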
